A study of Mus musculus with 6 samples.

Results

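The genes described here are the Hox genes of the 4 mammalian clusters, HoxA to HoxD, taken as every gene that the annotation of the Affymetrix mouse array names alone for a probe set and whose symbol is Hox, a cluster letter and a paralog number. This rule found 33 of the 39 clustered Hox genes in the mouse reference table, among 18194 named genes in all. For each gene the probe set with the highest mean over the 6 arrays was used, and 23 of the 33 passed a low-value limit, which asks for 3 or more arrays with a log2 value of 4 or above. The other 6 Hox genes were not analysed here. The arrays measured total RNA from the sciatic nerve of mice at postnatal day 2, after removal of the perineurium, the sheath around the nerve. In the double knockout (dKO) group, 3 nerve samples came from pups positive for a Cre recombinase under control of the desert hedgehog gene (DhhCre+) that lacked HDAC1 and HDAC2 in Schwann cells, the glia of peripheral nerve, and whose labelled disease state was peripheral hypomyelination. The 3 control samples came from DhhCre-negative littermates with no labelled disease. All samples had a mixed strain background. The labels do not say which floxed alleles the controls carried or how many nerves or pups went into a sample, so p-values measure only the spread between these samples.

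Hox genes encode transcription factors with a homeodomain, the DNA-binding fold that gives them their name. Their order along each chromosome follows the order in which they are used along the body axis, with low paralog numbers acting towards the head and high numbers towards the tail and the ends of the limbs. Genes with the same paralog number in different clusters (paralogs) are related copies. Cells such as fibroblasts keep a positional Hox pattern after development, and Polycomb proteins, which act through histone modification, hold Hox genes silent where they are not used. HDAC1 and HDAC2 remove acetyl groups from histones and are subunits of several repressor complexes. The comparison asks how Hox expression differs between nerves with and without both deacetylases in Schwann cells.

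Values are log2 expression as deposited, with mean ± SD over n = 3 arrays per group. Every change is dKO minus control on the log2 scale with its standard error (SE), and adjusted p-values come from limma with Benjamini-Hochberg adjustment over all 14550 genes that passed the limit. The median SE was 0.17, and precision is limited by having 3 arrays in a group. The targeted genes fell without overlap of the groups, Hdac1 with a log2 change of -1.55 (SE 0.13) and Hdac2 with one of -1.26 (SE 0.15). Schwann cell identity genes were well above the limit in both groups, for example Sox10 at 10.18 to 10.99 in control and 9.92 to 10.66 in dKO nerves. Single arrays are called control 1 to 3 and dKO 1 to 3.

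Of the 23 Hox genes that passed the limit, 8 passed an adjusted p of 0.05 in dKO nerves, with 7 rising and 1 falling. The higher genes were Hoxa5, Hoxa9, Hoxa10, Hoxc4, Hoxc8, Hoxc9 and Hoxc10, and the lower gene was Hoxb3. The 8 genes are 34.8% of those tested, where 22.0% of all tested genes were called. This margin depended on the arrays and the scaling: without control 1, 3 of the 23 Hox genes (13%) and 16.5% of all genes were called, and without any other array 4 or 5 Hox genes (17.4% or 21.7%) and 15% to 20% of all genes. With arrays centred on a common median, the shares were 21.7% and 22.3%. By direction, 30.4% of the Hox genes were called higher against 12.6% of all tested genes, and 4.35% were called lower against 9.38%. The higher calls fell from 7 to 4 with arrays centred, to 3 without control 1 and to 4 or 5 without any other array. The share of all genes called higher in those fits is not given here. All dKO values lay on 1 side of all control values for 9 Hox genes, which is 39.1% and close to the 40.9% of all tested genes. The median log2 change was 0.12 over the tested Hox genes and 0.01 over all tested genes, and 16 of the 23 changes were positive (69.6%, against 50.6% of all tested genes). By cluster, 4 of 6 tested HoxC genes, 3 of 6 tested HoxA genes, 0 of 8 tested HoxB genes and 0 of 3 tested HoxD genes were called higher, and the difference between clusters was not tested. Leaving out 1 array left 2 or 3 HoxC genes (2 without control 1, control 2, dKO 2 or dKO 3) and 1 to 3 HoxA genes (1 without control 1), and still 0 in HoxB and HoxD. The plot of changes by paralog number shows the reported values.

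**Figure D1:**
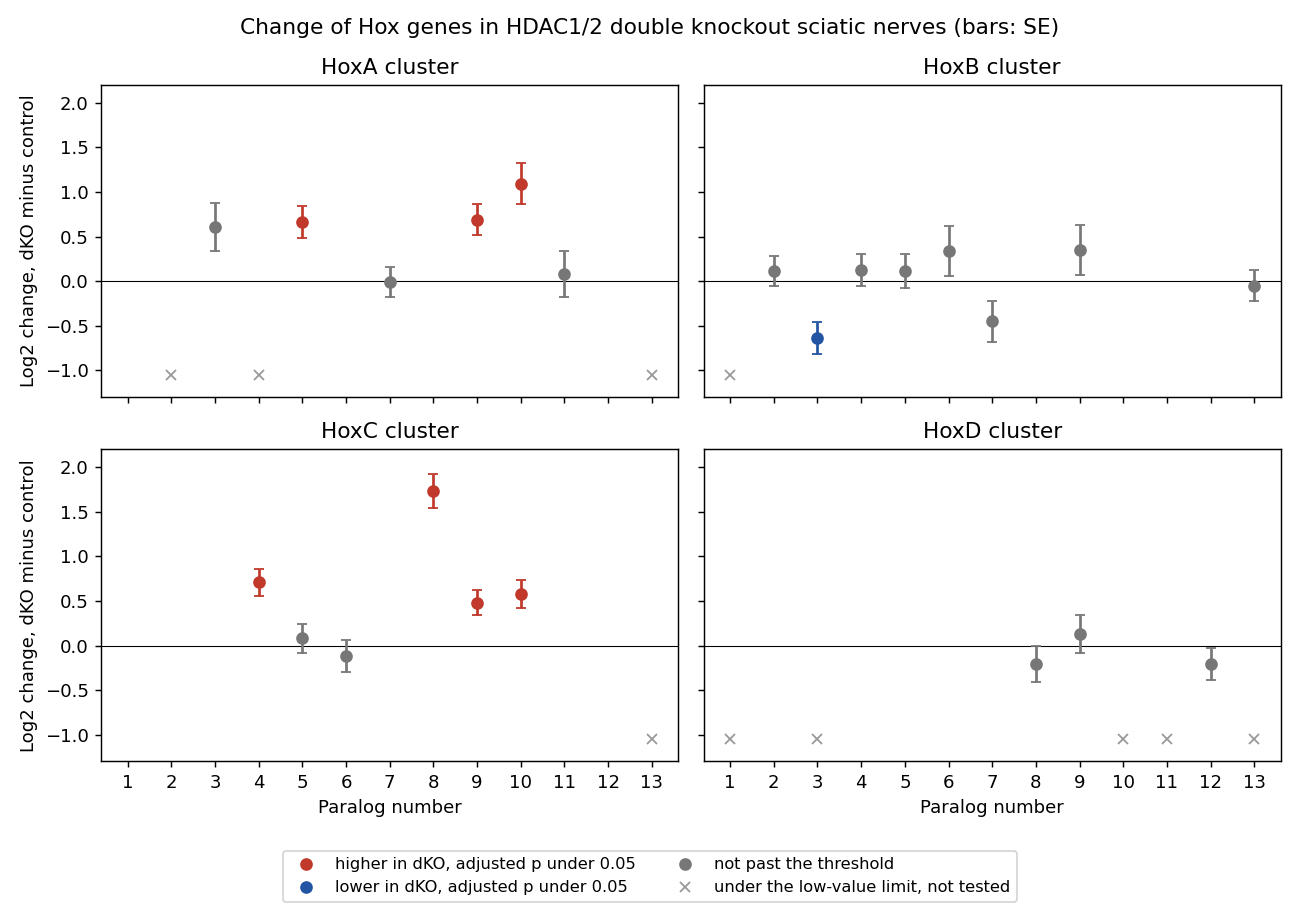
Log2 change (dKO minus control, with SE) of each named Hox gene against its paralog number, 1 panel per cluster, with genes under the limit as crosses at the bottom of each panel. The 7 red points, all in HoxA and HoxC, run from 0.48 for Hoxc9 to 1.73 for Hoxc8, and the blue point is Hoxb3 at -0.64.

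Markers of other cells of the nerve moved on the same arrays. Of 11 fibroblast and mesenchyme markers, 6 rose and 0 fell (54.5% called, against 22.0% of all tested genes), with a median log2 change of 0.76. Their summed level on the linear scale was 39800 to 42900 on the control arrays and 45900 to 48000 on the dKO arrays. Such sums, here and below, mostly reflect the brightest genes (collagen genes in this list) and are not levels of a cell type. Leaving out 1 array at a time left 3 to 6 of the 11 markers called higher. Dpt, which encodes the matrix protein dermatopontin, was 3.10, 3.52 and 4.24 on the control arrays and 7.65, 6.42 and 6.87 on the dKO arrays. Since control 1 and control 2 were under the limit, its rise is given as 7.46-fold with those values set to 4. The collagen genes Col1a1, Col1a2 and Col3a1 had changes of 0.12, -0.03 and 0.11, none past the threshold. Fibroblasts and other mesenchymal cells of the limb express Hox genes themselves, and the part of these cells in the Hox changes was not tested. Since whole nerve was measured, more cells of a type and more RNA per cell cannot be told apart.

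Of 8 skeletal muscle markers that passed the limit, only Mylpf was called (log2 change 0.62, not called when any array but dKO 1 was left out, with an adjusted p of up to 0.107), and the muscle regulators Myog and Pax7 were under the limit. Their summed level was 265 to 365 in control and 311 to 398 in dKO nerves, so the groups overlapped. Of 3 tested cartilage and bone markers limma called 0, also at an unadjusted p under 0.05, with sums of 419 to 839 in control and 434 to 533 in dKO nerves. Of 6 tested Schwann cell markers 2 fell and 1 rose, and their sum was 8030 to 10100 in control and 5500 to 6630 in dKO nerves. Of 7 tested macrophage and blood cell markers 2 rose, Aif1 and Tyrobp (neither called without control 2, control 3 or dKO 2, and Tyrobp not without control 1, adjusted p up to 0.136), and their sum went from 1870 to 2280 in control to 2740 to 5600 in dKO nerves. Of 3 tested adipocyte markers 1 rose, Fabp4, whose change was 2.30. Their sum, set mostly by Fabp4, was 862 to 2240 in control and 5240 to 8880 in dKO nerves. Lpl and Cidec had changes of 1.12 and -0.28, neither called, and the adipocyte hormone gene Adipoq was under the limit on all 6 arrays. Of 6 tested perineurial and epineurial markers 2 rose and 1 fell (sum 1620 to 1660 in control and 2290 to 2820 in dKO nerves), and Comp did not pass the limit. Of these, Cldn1 missed the threshold without control 2, without dKO 1 and without dKO 2 (highest adjusted p 0.0584), and Itgb4, which fell, was called only without control 1 among the fits with 1 array left out (adjusted p up to 0.119). Of 7 endothelial markers limma called 0, with 3 at an unadjusted p under 0.05, and of 6 pericyte and smooth muscle markers 1 rose (Rgs5, not called when any 1 array was dropped, adjusted p up to 0.118), with sums of 953 to 1270 and 2300 to 2560 in control and of 1310 to 1880 and 2800 to 3800 in dKO nerves. Of 7 tested neuronal markers 1 rose and 1 fell (sum 1680 to 2150 in control and 2130 to 2570 in dKO nerves). Of 3 tested melanocyte markers 2 fell, Mitf by 1.63 and Pmel by 1.22 (sum 643 to 977 in control and 248 to 347 in dKO nerves). Pmel reached an adjusted p of 0.0956 with 1 array left out and kept its call only without control 1 or dKO 1. Dct had a change of 0.13 and was not called, and Tyr and Mlana were under the limit on all 6 arrays. Against 22.0% of all tested genes, the shares called were 12.5% for muscle, 16.7% for pericyte, and 28.6% each for macrophage and neuronal markers. They were 33.3% for adipocyte, 50.0% each for Schwann cell and perineurial, and 66.7% for melanocyte markers. With 3 to 8 tested genes in a list, these shares are coarse. The part of these cell types in the Hox changes was likewise not tested.

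The HoxC cluster held the largest Hox change. Hoxc8, a gene of the trunk and brachial region, was 5.21, 5.17 and 5.11 on control arrays 1 to 3 and 6.62, 6.78 and 7.28 on dKO arrays 1 to 3. The groups were separated by 1.41, the widest gap of any Hox gene. Its mean rose 3.32-fold, with 5.16 ± 0.05 in control and 6.89 ± 0.34 in dKO nerves (log2 change 1.73, SE 0.19, adjusted p = 0.000622). The call held in all 12 alternative settings, and the change stayed between 1.54 and 1.87 when single arrays were left out.

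Hoxc4, a gene of the neck region of the axis, was 8.03, 7.82 and 7.59 in control and 8.47, 8.54 and 8.55 in dKO nerves. The 3 dKO arrays lay close together and above every control array. It rose by 0.71 (SE 0.15, adjusted p = 0.0134, 1.63-fold), and this call held in all 12 settings, with an adjusted p of up to 0.0484. The next 2 genes of the cluster, Hoxc5 and Hoxc6, had overlapping groups and changes of 0.08 (95% interval -0.28 to 0.45) and -0.12 (-0.53 to 0.29). Hoxc4, Hoxc5 and Hoxc6 are known to share transcripts, and the array does not say which transcript gave a signal.

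Hoxc9 and Hoxc10 belong to the paralog groups that pattern the lower trunk and the hindlimb level. Hoxc9 was 6.52, 6.50 and 6.45 in control and 6.93, 6.82 and 7.14 in dKO nerves, which do not overlap. Its change of 0.48 (SE 0.14, adjusted p = 0.0443) was the smallest called Hox change, and the call was lost when any of the 6 arrays was left out (adjusted p up to 0.125). Hoxc10 was 8.10, 8.03 and 8.39 in control and 8.54, 8.91 and 8.80 in dKO nerves, with a gap of 0.151 between the groups. It rose by 0.58 (SE 0.16, adjusted p = 0.0385), with an adjusted p of up to 0.127 and no call when control 1, control 2, dKO 2 or dKO 3 was dropped. After centring of the arrays on a common median of the tested genes, the changes of Hoxc9 and Hoxc10 were 0.40 and 0.50 and neither was called. Hoxc13, the last gene of the cluster, stayed under the limit on all arrays.

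In the HoxA cluster the neighbours Hoxa9 and Hoxa10 rose. Hoxa10, which patterns the lumbar spine and the thigh, was 5.28, 5.89 and 6.03 in control and 6.79, 6.59 and 7.08 in dKO nerves. Every dKO array was above every control array, and control 1 was the lowest of the 6. It rose by 1.09 (SE 0.23, adjusted p = 0.0109, 2.12-fold). The call held in all 12 settings, although the change was 0.50 when averaged with its second probe set, which was under the limit on all arrays. Hoxa9, known for its part in blood stem cells as well as in axial patterning, was 8.47, 8.66 and 8.32 in control and 9.08, 9.0 and 9.43 in dKO nerves. It rose by 0.69 (SE 0.17, adjusted p = 0.0220), a call lost without control 1 or control 3 (adjusted p up to 0.0745). Its second probe set overlapped between the groups and changed by -0.15, so that the mean of both was 0.27 and was not called.

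Hoxa5, a gene of the lower neck and upper chest level, was 5.02, 5.20 and 5.48 in control and 6.07, 5.67 and 5.94 in dKO nerves. The groups were 0.189 apart. It rose by 0.66 (SE 0.18, adjusted p = 0.0301), and was not called after centring of the arrays or when control 1, control 2, dKO 1 or dKO 3 was dropped (adjusted p up to 0.101). Its dimmer probe set changed by 0.42 (SE 0.15, adjusted p = 0.109 over all probe sets, not called). The mean of both probe sets changed by 0.54 and was called. Hoxa3, a gene of the pharyngeal region, had a change of 0.61 (95% interval -0.01 to 1.22, adjusted p = 0.151) with overlapping groups. Of its 4 probe sets, a dimmer one changed by 0.66 and was called (adjusted p = 0.0399 over all probe sets). Hoxa7, between the called genes Hoxa5 and Hoxa9, had a change of -0.01 (-0.40 to 0.38), and Hoxa11 had one of 0.08 (-0.52 to 0.69).

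The plus-strand and minus-strand sequences just before the start sites of Hoxc4 and Hoxa10 are shown because these genes kept their calls in all settings. They are the 250 bases upstream of the RefSeq start on GRCm38.p6, with chr15:103034145-103034394 on the plus strand for Hoxc4 and chr6:52234940-52235189 and chr6:52240855-52241104 on the minus strand for 2 starts of Hoxa10. Capitals mark matches on either strand to the CCAAT box (CCAAT), the TATA box (TATAAA), the GC box (GGGCGG), the PBX-HOX site (TGATNNAT) or the MEIS site (TGACAG).
Hoxc4: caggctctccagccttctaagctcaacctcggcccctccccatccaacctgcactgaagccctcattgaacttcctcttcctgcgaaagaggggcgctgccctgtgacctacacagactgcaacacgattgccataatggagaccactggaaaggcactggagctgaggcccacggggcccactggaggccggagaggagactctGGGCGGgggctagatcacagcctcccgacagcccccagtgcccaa
Hoxa10 start nearer the coding region: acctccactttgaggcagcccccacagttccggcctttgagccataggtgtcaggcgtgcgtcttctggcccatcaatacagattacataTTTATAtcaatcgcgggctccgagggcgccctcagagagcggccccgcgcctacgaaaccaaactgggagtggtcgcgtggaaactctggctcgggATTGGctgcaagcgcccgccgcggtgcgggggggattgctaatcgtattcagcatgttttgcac
Hoxa10 start farther upstream: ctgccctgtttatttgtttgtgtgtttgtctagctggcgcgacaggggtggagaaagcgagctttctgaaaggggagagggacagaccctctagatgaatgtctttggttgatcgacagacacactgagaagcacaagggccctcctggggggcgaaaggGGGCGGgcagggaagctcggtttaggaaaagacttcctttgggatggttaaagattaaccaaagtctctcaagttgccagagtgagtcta
The Hoxc4 window and the upstream Hoxa10 window each held 1 GC box, and the nearer Hoxa10 window held 1 TATA box match and 1 CCAAT box. No matches overlapped in them. Among all 32851 windows of this length in the table, 32.7% held a GC box, 33.8% a CCAAT box and 12.4% a TATA box match. The PBX-HOX site was in 7.68% of all windows and in 0 of 12 windows of 11 tested Hox genes, and the MEIS site in 15.9% and in 1 of 12. A match is only a description of the letters. The CG dinucleotide occurred 8 times for Hoxc4, 20 times in the nearer and 7 times in the upstream Hoxa10 window, against a median of 6 over all windows and 11.5 over those of tested Hox genes. Hoxc8, Hoxc9 and Hoxc10 had no window to show.

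Of the neighbours called higher at the tail end, Hoxa9 with Hoxa10 and Hoxc9 with Hoxc10, only Hoxa10 kept its call in all 12 settings. Both pairs lie on either side of a gene for a miR-196 microRNA in the RefSeq order, Mir196b and Mir196a-2. These microRNAs are known to target several Hox messages. Their mature forms are shown 5′ to 3′ with the seed (bases 2 to 8) in capitals, and both share that seed. Mir196b lies on the minus strand at chr6:52230129-52230150 and Mir196a-2 on the plus strand at chr15:102973365-102973386 (GRCm38.p6). Another gene, Mir196a-1, gives the same mature form as Mir196a-2 and lies in HoxB beside Hoxb9 (change 0.35, adjusted p = 0.422, not called). The nearest Hox gene on its other side, Hoxb13, had a change of -0.05. The levels of these microRNAs were not analysed here, and any link between them and the Hox changes was not tested.
mmu-miR-196b-5p: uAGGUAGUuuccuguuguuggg
mmu-miR-196a-5p: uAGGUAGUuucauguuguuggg

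In the HoxB cluster Hoxb3, which acts in the hindbrain and neck region, was the only Hox gene called lower. It was 7.21, 7.31 and 7.10 in control and 6.40, 6.39 and 6.90 in dKO nerves, with dKO 3 nearest to the controls. It fell by 0.64 (SE 0.18, adjusted p = 0.0344), and its second probe set fell by 0.84 (SE 0.24, adjusted p = 0.0516 over all probe sets, not called). Among the fits with 1 array left out, the first was called only without dKO 3 (adjusted p up to 0.114 in the others). The other 7 tested HoxB genes had changes of -0.45 to 0.35. Hoxb7 had a change of -0.45 (95% interval -0.97 to 0.06) and groups that did not overlap by only 0.003. Hoxb4 and Hoxb5, with changes of 0.12 (-0.30 to 0.55) and 0.11 (-0.33 to 0.56), had overlapping groups, as had Hoxb2, Hoxb6, Hoxb9 and Hoxb13.

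The largest change of any transcript measured inside a Hox cluster belonged to Hoxb5os, a noncoding RNA named as an opposite-strand transcript of Hoxb5. It is no member by the rule above and was picked out after its values were seen. It was 6.67, 7.12 and 6.63 on the control arrays and 4.57, 3.90 and 5.02 on the dKO arrays. The groups lay 1.61 apart, and dKO 2 was under the limit. It fell by 2.31 (SE 0.28, adjusted p = 0.000998), which is 4.85-fold with the value under the limit set to 4. The call held in all 12 settings, and leaving out single arrays gave changes of -2.57 to -2.01. In the reference order it lies between Hoxb7, whose change was -0.45, and Hoxb6, whose change was 0.34 with overlapping groups. Hoxb5, the next gene after Hoxb6, had a change of 0.11. Which strand the probe set reads was not checked here. Of 5 other named transcripts inside the clusters, Hoxb5os included, 4 passed the limit and 1 was called. Gm15050 and Gm38462 had changes of 0.49 and 0.41 (adjusted p = 0.147 and 0.0724), Hoxd3os1 had a change of 0.14, and Hoxa11os was under the limit.

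**Figure D2:**
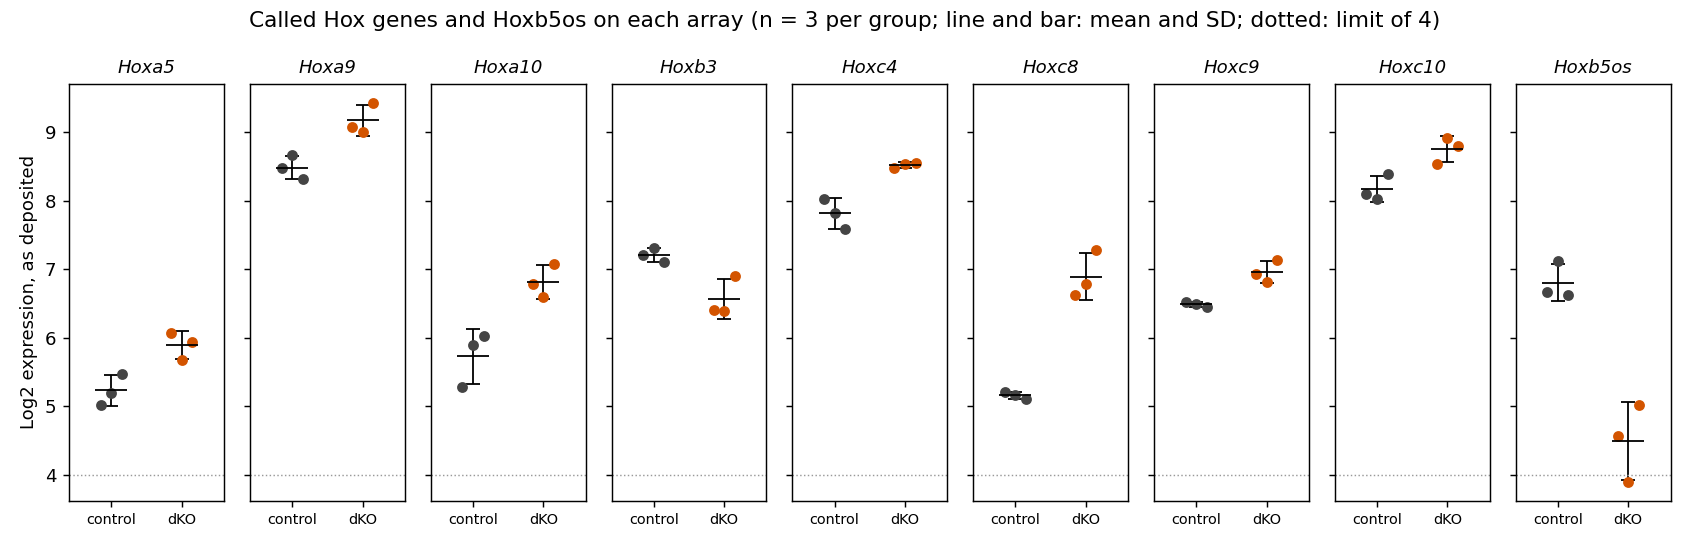
Log2 expression on each array (points, n = 3 per group, with mean and SD) for the 8 called Hox genes and Hoxb5os, with the limit of 4 as a dotted line. The gap between groups is widest for Hoxb5os (1.61) and Hoxc8 (1.41), and the called genes with the narrowest gap are Hoxc10 (0.151), Hoxa5 (0.189) and Hoxb3 (0.194).

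No HoxD gene was called: limma gave 0 of 3 tested at an adjusted p under 0.05 and 0 at an unadjusted p under 0.05. Hoxd8, which acts in the trunk, was 9.84, 10.11 and 9.58 in control and 9.52, 9.43 and 9.95 in dKO nerves. The groups overlapped, with a change of -0.21 (95% interval -0.67 to 0.24). Hoxd9 was 7.56, 8.11 and 7.55 in control and 7.56, 8.06 and 8.01 in dKO nerves, which also overlapped, with a change of 0.13 (-0.35 to 0.62). Hoxd12 had a change of -0.21 (-0.64 to 0.21). The interval of Hoxd9 includes the change of Hoxc9.

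The 10 Hox genes under the limit were Hoxa2, Hoxa4, Hoxa13, Hoxb1, Hoxc13, Hoxd1, Hoxd3, Hoxd10, Hoxd11 and Hoxd13. Their values ran from 2.17 to 3.91 and they were not tested. Hoxd13, the highest of them, reached 3.91 on control 1, while Hoxb2, just inside the limit, was 4.07, 3.92 and 3.60 in control and 4.14, 3.78 and 4.0 in dKO nerves. By paralog number, 5 of 10 named genes of groups 1 to 4, all 9 of groups 5 to 8 and 9 of 14 of groups 9 to 13 passed the limit. Of these, 1, 2 and 4 were called higher, where 12.6% of all tested genes were. With single arrays left out, Hoxa5, Hoxa9, Hoxc9 and Hoxc10 lost their calls in 4, 2, 6 and 4 of the 6 fits. Hoxc4, Hoxc8 and Hoxa10, from groups 1 to 4, 5 to 8 and 9 to 13 in turn, kept theirs. The difference between these ranges of paralog number was not tested.

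Related copies of the same paralog number were set against each other by testing the difference between their changes. There were 9 pairs in which 1 gene was called and the other was not. These pairs were picked by their calls on the same arrays, which favours large differences, so the test gives no independent support. The change of Hoxc8 exceeded that of Hoxd8 by 1.94 (SE 0.16), and Hoxb3 changed by 1.25 less than Hoxa3 (difference -1.25, SE 0.23). Hoxc4 exceeded Hoxb4 by 0.58 (SE 0.12), and Hoxa9 exceeded Hoxd9 by 0.55 (SE 0.21). For these 4 pairs p was 0.1 in a two-sided exact permutation test, the smallest that 3 against 3 arrays allow (0.225 adjusted over the 9 pairs). The other 5 pairs had an exact p of 0.2 to 0.8, and the difference between Hoxc9 and Hoxb9 was 0.13 (SE 0.39). The permutation test could not reach 0.05 for any pair.

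Array by array, dKO 3 had the highest value for 5 of the 7 higher genes. The mean of the 7 genes relative to the control mean was 0.77 in dKO 1, 0.75 in dKO 2 and 1.02 in dKO 3. It lay between -0.07 and 0.04 on the control arrays. The 7 genes were picked for being higher on these same dKO arrays, so the separation of the groups follows from the choice. These means only describe how the arrays differ within a group. The median over all tested genes was 7.64 on dKO 3 and 7.45 to 7.52 on the other arrays. Without dKO 3, 4 Hox genes were called higher and 1 lower. Hoxa10, Hoxc4 and Hoxc8 were the 3 Hox genes called in all settings, as the grid of changes by setting shows.

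**Figure D3:**
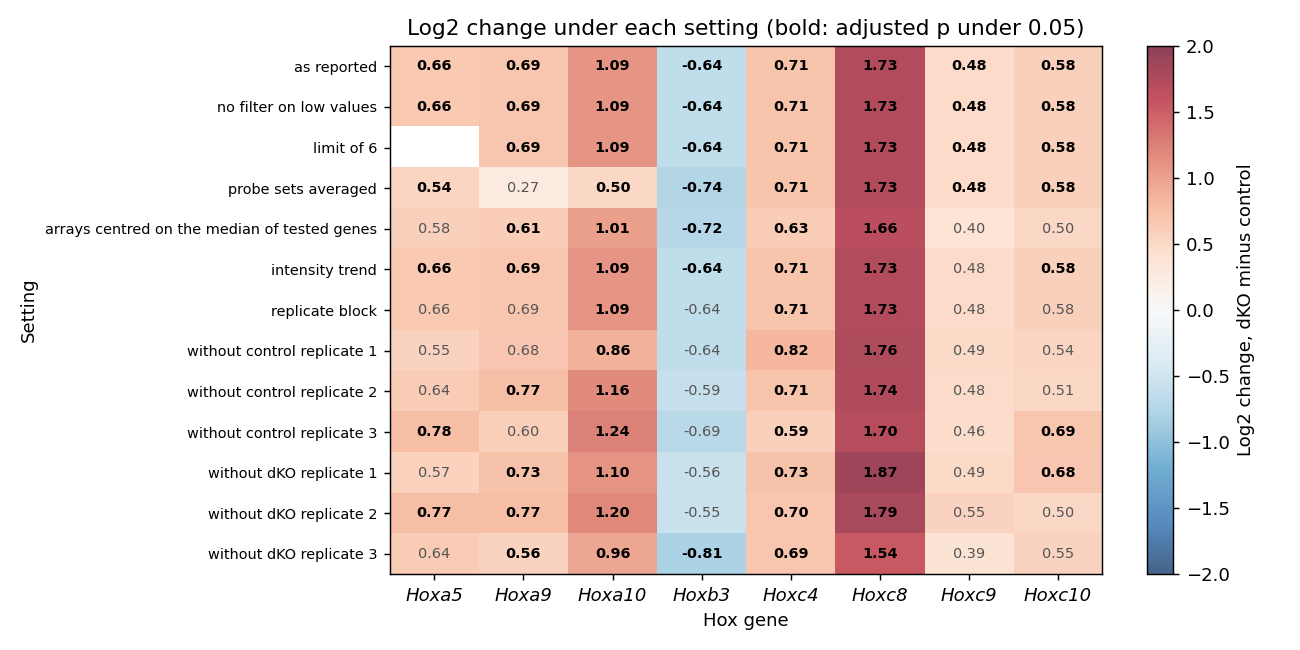
Log2 change (dKO minus control) of the 8 called Hox genes under the reported setting and 12 alternatives, with bold numbers where the adjusted p was under 0.05 and an empty cell where Hoxa5 was under the limit of 6. All values of a gene keep their sign, and Hoxa10, Hoxc4 and Hoxc8 are bold in all rows.

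Genes of the TALE homeobox family, whose proteins bind DNA together with Hox proteins, included 4 that rose. Of 10 tested, 0 fell, so 40.0% were called, against 22.0% of all tested genes, and the median change was 0.19. Meis2 was 3.76, 5.03 and 5.19 in control and 6.87, 7.18 and 7.28 in dKO nerves, with no overlap and control 1 under the limit. It rose by 2.45 (SE 0.35, adjusted p = 0.00198), which is 5.16-fold with that value set to the limit, and 3 of its 4 probe sets were called. Pknox2, a relative of the Meis genes, was 7.66, 7.42 and 7.47 in control and 9.48, 9.69 and 9.52 in dKO nerves. It rose by 2.05 (SE 0.14, adjusted p = 0.000142), and its dimmer probe set, which was not called, changed by 0.29.

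Pbx3, a partner of Hox proteins of many paralog groups, was 7.16, 7.08 and 7.07 in control and 8.29, 8.30 and 8.74 in dKO nerves and rose by 1.34 (SE 0.16), on both of its probe sets. Meis3 was 7.01, 6.75 and 6.46 in control and 7.75, 7.78 and 7.79 in dKO nerves and rose by 1.03 (SE 0.17). All 4 calls held in all 12 settings. The remaining members moved less or in the other direction. Pknox1 and Pbx2 had changes of -0.73 and -0.52 (adjusted p = 0.0563 and 0.0810) with groups that did not overlap, and Meis1 had one of 0.08 (95% interval -0.38 to 0.54).

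**Figure D4:**
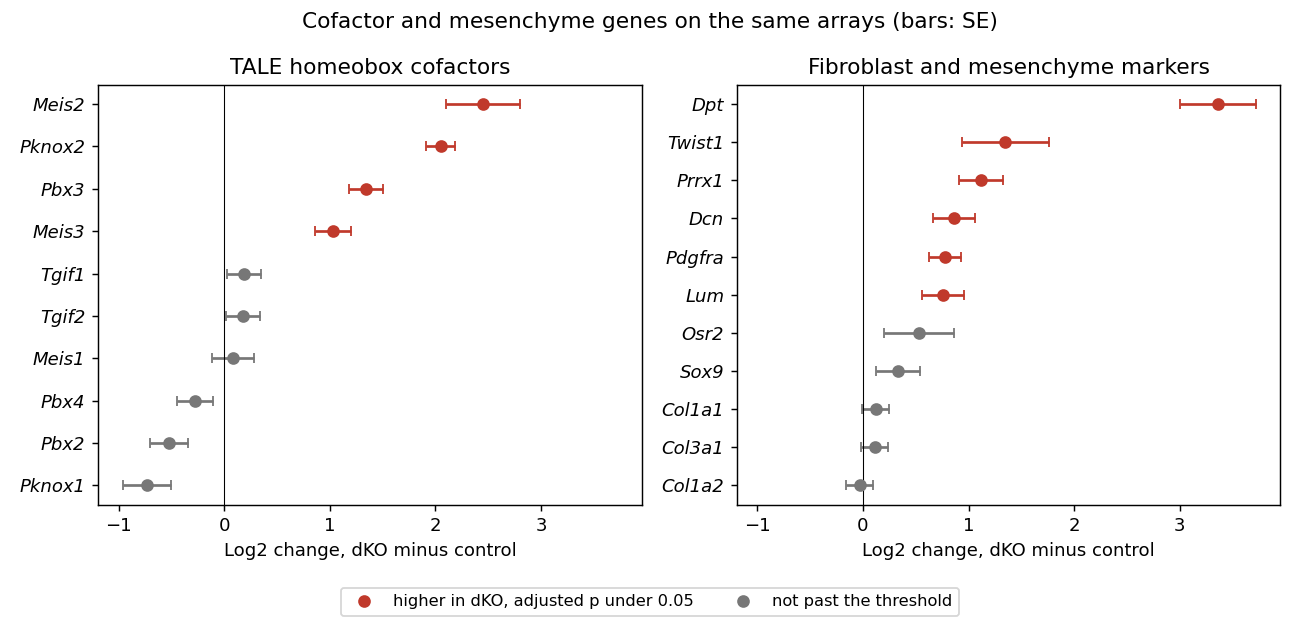
Log2 change (dKO minus control, with SE) of the tested TALE homeobox cofactors, left, and fibroblast and mesenchyme markers, right, with called genes in red. On the left Meis2, Pknox2, Pbx3 and Meis3 lie between 1.03 and 2.45, and on the right Dpt is plotted at 3.36 with 2 of its 3 control values under the limit.

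Polycomb genes, which encode the main silencers of Hox clusters, changed in both directions. Of 28 tested, 3 rose and 2 fell (17.9%, against 22.0% of all tested genes), with a median change of 0.11. In the complex that methylates histone H3, Ezh1, Ezh2, Eed and Suz12 were not called. Ezh1 had a change of -0.12 (95% interval -0.6 to 0.35) and Ezh2 one of -0.05 (-0.52 to 0.42). Eed was at 0.27 (-0.08 to 0.62) and Suz12 at 0.45 (0.07 to 0.83, adjusted p = 0.0885). Of the other Polycomb complex, Bmi1 fell by 0.62 (SE 0.15) and Pcgf1 by 0.76 (SE 0.19). Kdm2b, which brings a Polycomb complex to CpG-rich DNA, rose by 0.77 (SE 0.17), Yaf2 by 0.71 (SE 0.14) and Scmh1 by 0.59 (SE 0.16). The calls of Bmi1, Pcgf1 and Scmh1 were lost in 4, 4 and 5 of the 6 fits with 1 array left out (adjusted p up to 0.0745, 0.0883 and 0.110).

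Genes of or linked to the trithorax group, which keeps Hox genes active, were listed together with H3K27 demethylases, which take methyl groups off histone H3. Of 13 tested genes on this list 1 rose and 1 fell (15.4%, against 22.0% of all tested genes, median -0.03). Psip1, a chromatin protein that binds the MLL complex, rose by 0.88 (SE 0.14), and Mllt3 fell by 0.53 (SE 0.13), though not when any array but dKO 3 was dropped (adjusted p up to 0.0894). Kmt2a, which encodes the MLL methyltransferase itself, had a change of -0.17 (95% interval -0.72 to 0.39). Of 13 tested upstream regulators 1 rose and 2 fell (23.1%, close to that 22.0%, median -0.01). Egr2, a regulator of Hox genes in the hindbrain and of myelin genes in Schwann cells, fell by 1.74 (SE 0.26), and the retinoid receptor gene Rxrg fell by 1.43 (SE 0.16). Gmnn, which encodes geminin, a protein that binds Hox factors and Polycomb, rose by 0.77 (SE 0.16). The retinoic acid receptor genes Rara, Rarb and Rarg had changes of 0.27, -0.01 and -0.27 and were not called, and Cdx1 and Cdx4 did not pass the limit.

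Genes that flank the clusters were set beside them. Of 19 tested, 1 rose and 2 fell (15.8%, against 22.0% of all tested genes), with a median change of -0.02. Skap2, an adaptor protein gene beside HoxA, rose from 9.31, 8.90 and 8.96 to 9.79, 9.88 and 9.95 (change 0.81, SE 0.16). Snx11, in the neighbourhood of HoxB, fell by 0.72 (SE 0.13), and Smug1, a DNA repair gene beside HoxC, fell by 0.53 (SE 0.14), though not when control 2, control 3, dKO 1 or dKO 2 was dropped (adjusted p up to 0.102). The homeobox genes Evx1 and Evx2, next to HoxA and HoxD, did not pass the limit. Of 15 tested homeobox genes outside the clusters, chosen for the limb, trunk and neural crest, 3 rose and 1 fell (26.7%, against 22.0% of all tested genes), and leaving out 1 array gave 2 to 4 higher and 0 lower. Meox2, a mesodermal homeobox gene, was 7.10, 7.60 and 8.16 in control and 9.22, 9.18 and 9.74 in dKO nerves and rose by 1.76 (SE 0.28), and Prrx1 and Prrx2, of limb mesenchyme, rose by 1.12 (SE 0.21) and 0.66 (SE 0.15). Prrx1 is also on the mesenchyme list above. The call of Prrx2 was lost without control 2 or dKO 2 (adjusted p up to 0.0686). Lmx1b fell by 0.43, a call lost without any 1 of the 6 arrays (adjusted p up to 0.143).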

How the data were processed

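Each nerve sample was hybridised to 1 array. The authors deposited 1 log2 value per probe set and array. The submitters' processing notes list GCOS 1.2 and GCRMA. No source states the scale, and log2 was inferred from the range (1.66 to 14.94). Their sorted values differed by at most 0.01 between arrays, so a general shift of expression would be hidden, and values near the limit have little meaning as levels. Probe sets with several symbols (932) or none (9211) of 45101 were left out. Symbols were updated through a RefSeq table of GRCm38.p6, which also gave the gene order and sequences.

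The fit was limma 3.58.1 (lmFit and eBayes, R 4.3.3) over 14550 genes, two-sided, with a threshold of 0.05 and no covariates, tested on simulated data. Intervals are the fit's 95% intervals. The members, lists and tests were chosen with earlier results of these data known. All called Hox genes are named with their values, then up to 6 called genes per list by size of change. Alternatives were no limit, a limit of 6, averaged probe sets, centred arrays, an intensity trend, a replicate block and each array left out. Marker lists were written from general knowledge.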

Additional observations from a re-analysis of the deposited data

How the results depend on the processing

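Of the 23 tested Hox genes, none of the 8 called changed direction in any of 12 alternatives. Over the fits that left out 1 array, 3 to 5 Hox genes were called in all, 3 to 5 higher and 0 to 1 lower, and 2178 to 2916 of all genes. With arrays centred on a common median, 5 Hox genes were called, 4 of them higher. Under a limit of 6, 15 Hox genes passed it. With probe sets averaged, 5 flanking genes were called in place of 3. With the replicate number as a block, 3 Hox genes were called, 3 higher and 0 lower, in place of 8, and 2557 of all genes. The numbers are not shown to pair samples: deviations of same-numbered arrays from their group means correlated at 0.04, -0.12 and -0.23, and control 2 and control 3 correlated best with dKO 3 and dKO 2. The cause of these differences was not tested. Dim probe sets limit what can be said of 10 Hox genes under the limit.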
